A study of Mus musculus with 12 samples.

Results

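The transcripts of 9 Toll-like receptor genes (Tlr1, Tlr2, Tlr3, Tlr4, Tlr6, Tlr7, Tlr8, Tlr9 and Tlr13) and of Cd180, a relative of Tlr4, were followed through RNA sequencing of mouse embryonic fibroblasts in which huntingtin was deleted. These 10 genes were taken by symbol from the 55487 genes of the count files. All cultures were primary and carried homozygous floxed Htt alleles (HTTfl/fl). They came from E13.5 embryos and were harvested 7 days after transduction. HTT-deleted cultures had received a lentivirus with Cre recombinase and GFP (LV-Cre-GFP), and control cultures a different lentivirus encoding H2B-eGFP, so that the loss of huntingtin and the change of vector cannot be told apart. From each suspension a ribosome pellet gave ribosome-associated RNA and a small aliquot gave total RNA, with 3 HTT-deleted and 3 control cultures (12 libraries). Per the labels a replicate is a separate primary culture or a separate passage. In fits without the replicate number a p-value thus reflects how far cultures or passages differed. In fits that take the replicate number as a block, it reflects how far the difference between the compared groups varied among replicate numbers. Neither the strain nor the exons removed is given in the sources used here.

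Toll-like receptors are membrane proteins that bind conserved microbial molecules and, through adaptors such as MyD88 and TRIF, switch on NF-kappaB and interferon regulatory factors. Some sit at the cell surface and bind lipids and lipoproteins, and others sit in endosomes and bind nucleic acids once UNC93B1 has carried them there and cathepsins have trimmed them. Macrophages carry most members of the family, while fibroblasts are known mainly for TLR2, TLR3 and TLR4.

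Htt, the gene that was targeted, was lower in both fractions under deletion, with no overlap between HTT-deleted and control libraries. In ribosome-associated RNA Htt was at 12.8, 5.04 and 3.98 CPM (read counts scaled to library size with TMM normalization) in HTT-deleted cultures, against 22.6, 20.1 and 32.0 CPM in controls. In total RNA it was at 15.5, 10.6 and 10.7 CPM in HTT-deleted cultures, against 58.9, 45.8 and 64.6 CPM in controls. Yet Htt did not pass edgeR's quasi-likelihood test adjusted over all genes in either fraction, with or without the replicate number as a block. With the block its log2 fold change was -1.89 (SE 0.58, adjusted p = 0.537 by edgeR) in ribosome-associated RNA and -2.18 (SE 0.20, adjusted p = 0.902 by edgeR) in total RNA. Gene counts summed to 16789356 to 30571501 per library. The mean of 10 fibroblast markers was 10.45 to 11.16 on the log2 CPM scale, which fits the labelled cell type, and transcripts of macrophage markers were present in all 12 libraries as well. The total RNA library of HTT-deleted replicate 1 stood apart: across 13529 protein-coding genes, those with more bases of exon were lower in it relative to the mean of the other total libraries (Spearman correlation -0.491), against 0.156 to 0.332 in the 5 other total libraries. Among ribosome-associated libraries the control of replicate 1 had -0.385, against 0.028 to 0.137 in the 5 others. Both libraries belong to pair 1, and tests of deletion are given with and without that pair.

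All 10 genes were detected in all 12 libraries, and all 10 passed the filter on low counts in every comparison. Per kilobase of exon, Tlr13, which in mice binds bacterial ribosomal RNA, and Tlr2, the shared partner in lipoprotein recognition, stood at the top of the order in every group. In ribosome-associated RNA of HTT-deleted cultures Tlr13 averaged 11.2 ± 5.97 and Tlr2 10.1 ± 2.62 CPM per kb (SD, n = 3). Tlr9, the endosomal receptor for CpG DNA, was lowest in each of the 4 groups. It averaged 0.397 ± 0.219 CPM per kb in ribosome-associated RNA of HTT-deleted cultures and 0.254 ± 0.158 CPM per kb in that of controls. In the HTT-deleted ribosome-associated libraries the descending order was Tlr13, Tlr2, Tlr7, Tlr4, Cd180, Tlr8, Tlr3, Tlr1, Tlr6 and Tlr9, and each neighbour in it overlapped the next except Tlr6 and Tlr9. In control ribosome-associated libraries Tlr2 led with 8.74 ± 2.04 CPM per kb, ahead of Tlr13 with 6.44 ± 3.28 CPM per kb, and their libraries overlapped. There Tlr3 and Tlr8, and Tlr1 and Tlr9, were the neighbours without overlap. In total RNA of HTT-deleted cultures the order was Tlr2, Tlr13, Tlr7, Tlr4, Cd180, Tlr3, Tlr8, Tlr1, Tlr6 and Tlr9, led by Tlr2 with 8.31 ± 1.84 CPM per kb, and again Tlr6 and Tlr9 alone did not overlap. In total RNA of controls Tlr2 led with 6.77 ± 1.80 CPM per kb and all neighbours overlapped. Of the remaining mouse family members, Tlr5, the flagellin receptor, had 5 to 20 counts per library (0.295 to 0.982 CPM) and did not pass the filter on low counts in ribosome-associated RNA. Tlr11 and Tlr12, receptors for a protozoan profilin, had 0 counts in all 12, where 3 counts would have been 0.0981 to 0.179 CPM.

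**Figure D1:**
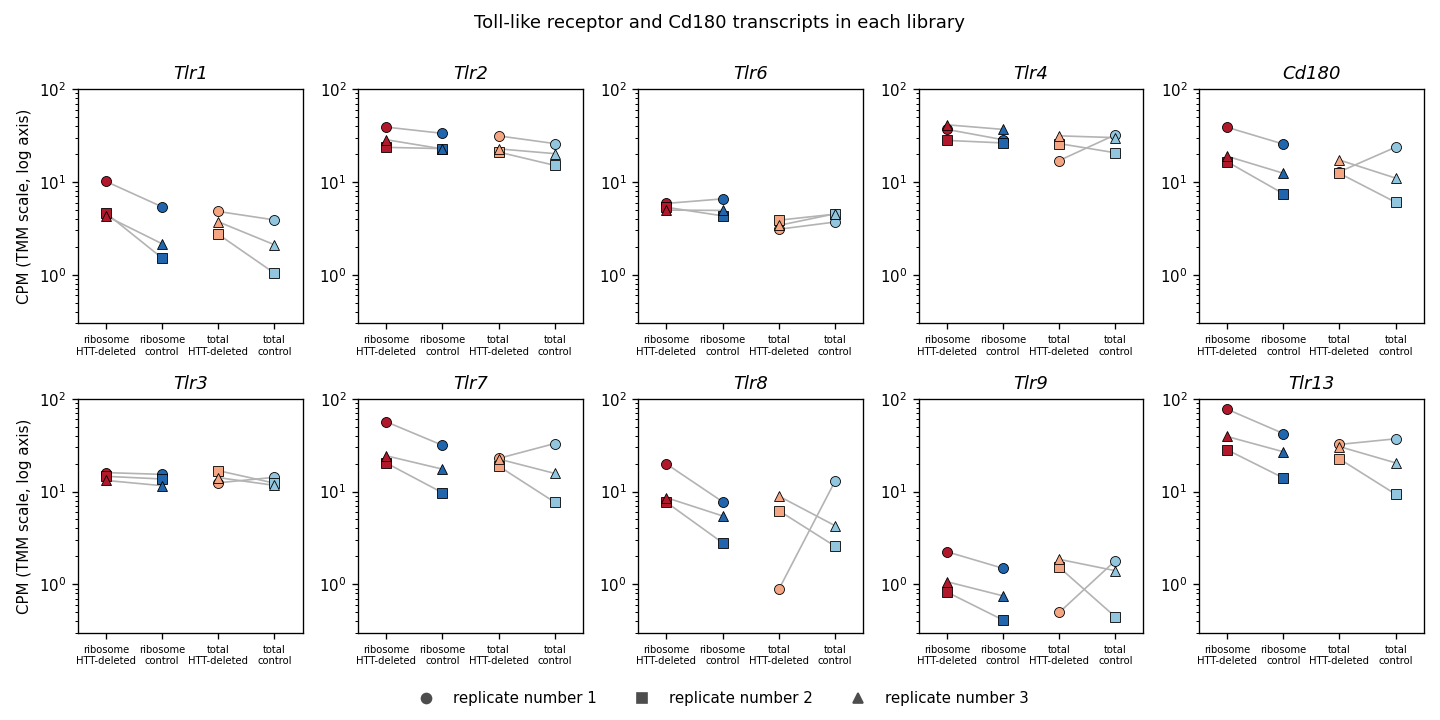
Level of each gene in each library, in CPM on a log axis, with ribosome-associated libraries to the left of total libraries and HTT-deleted left of control; grey lines join libraries with the same replicate number. In the ribosome-associated libraries all lines of every gene but Tlr6 fall toward control, while in total RNA Tlr8 spans 0.884 to 13.0 CPM.

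The members differed widely in how much they varied among cultures. Tlr3, the sensor of double-stranded RNA, ran from 11.6 to 16.8 CPM over the 12 libraries, a span of 1.45 times. Tlr6, the other partner of Tlr2, spanned 2.12 times, Tlr4 2.43 times and Tlr2 2.59 times. Tlr9 spanned 5.45 times on 9 to 55 counts, Tlr7, Tlr13, Tlr1 and Cd180 spanned 6.44 to 9.76 times, and Tlr8 22.4 times. The lowest value of Tlr8 was that of the total library that stood apart, and without it Tlr8 spanned 7.70 times. Wide spans were thus found for receptors of the cell surface, Tlr1 and Cd180, as well as for endosomal ones.

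In ribosome-associated RNA, 5 of the 10 genes rose in HTT-deleted cultures once libraries were compared within replicate numbers: Tlr1, Cd180, Tlr7, Tlr8 and Tlr13, by 1.70 to 2.20 times. The other 5 did not pass the test. Across all genes, edgeR's quasi-likelihood test with the replicate number as a block and Benjamini-Hochberg adjustment called 247 of 14588 genes (1.69%), 213 of them higher (1.46%). Without the block it called 0 genes and 0 of the 10 (0%), with 110 genes and 0 of the 10 at an unadjusted p under 0.05, and DESeq2 called 1 gene (0.00685%) and none of the 10. Libraries with the same number deviated together from their group means, so the blocked values are given. Groups overlapped for each of the 10 genes (2.63% of all genes were higher without overlap), and replicate number 1 was the highest of its arm for every one of them but Tlr4. Macrophage markers, 18 in all, moved with the receptors: their mean on the log2 CPM scale was 7.11, 5.81 and 6.06 in HTT-deleted libraries, against 6.49, 4.64 and 5.64 in controls. In bulk RNA more cells of a type and more RNA per cell cannot be told apart, and the part of macrophages in these differences was not tested.

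Among the receptors for lipoproteins, Tlr1 was at 10.1, 4.63 and 4.31 CPM in HTT-deleted ribosome-associated libraries, against 5.40, 1.51 and 2.16 CPM in controls. Each HTT-deleted culture was above the control of its own number, although the lowest HTT-deleted library was below the highest control. The log2 fold change of Tlr1 was 1.13 (SE 0.19, adjusted p = 0.00415 by edgeR's blocked quasi-likelihood test). Tlr2, with which TLR1 forms the receptor for triacylated lipopeptides, was at 39.1, 23.6 and 28.6 CPM in HTT-deleted libraries, against 33.4, 22.9 and 22.7 CPM in controls. Tlr2 was higher in each pair but did not pass (log2 fold change 0.21, SE 0.10, adjusted p = 0.466 by edgeR). Tlr6, which pairs with TLR2 for diacylated lipopeptides, was at 5.87, 5.33 and 4.97 CPM in HTT-deleted libraries, against 6.58, 4.31 and 4.94 CPM in controls. It was the only one of the 10 that was not higher in all 3 pairs, and its 95% interval ran from -0.30 to 0.41 on the log2 scale. Tlr2 lies on chromosome 3 (83836272 to 83841767, minus strand, GRCm38), and Tlr1 and Tlr6 are neighbours on chromosome 5, at 64924679 to 64933563 and 64952031 to 64960097 on the minus strand (GRCm38).

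Of the receptor for lipopolysaccharide and its relative, Cd180 rose and Tlr4 did not pass. CD180, also named RP105, resembles TLR4 outside the cell, lacks its signalling domain and is known for tuning lipopolysaccharide responses in B cells and macrophages. Cd180 was at 38.9, 16.5 and 18.9 CPM in HTT-deleted libraries, against 25.6, 7.48 and 12.4 CPM in controls. All 3 pairs were higher, with differences of 0.60, 1.14 and 0.60 on the log2 scale, and the fitted log2 fold change was 0.76 (SE 0.12, adjusted p = 0.00205 by edgeR). Tlr4 was at 36.9, 28.1 and 41.4 CPM in HTT-deleted libraries, against 28.5, 26.3 and 36.9 CPM in controls. Its pair differences of 0.37, 0.09 and 0.17 were all above 0 and the fitted value was 0.21 (SE 0.09, adjusted p = 0.432 by edgeR). Tlr4 lies on chromosome 4 (66827584 to 66930284, plus strand, GRCm38). Cd180 lies on chromosome 13 (102693558 to 102739629, plus strand, GRCm38) across from Mast4 on the minus strand, and no source used here states how the counting treated strand, so reads of the overlap are uncertain.

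Among the endosomal receptors, Tlr7, Tlr8 and Tlr13 rose and Tlr3 and Tlr9 did not pass. Tlr13 (chromosome X, 106143204 to 106160493, plus strand, GRCm38) was at 77.2, 28.2 and 39.2 CPM in HTT-deleted libraries, against 42.2, 14.0 and 26.9 CPM in controls. Its log2 fold change of 0.80 (SE 0.10, adjusted p = 0.000553 by edgeR) had the smallest p of the 10. Tlr7, the sensor of single-stranded RNA, was at 56.5, 20.3 and 24.3 CPM in HTT-deleted libraries, against 31.6, 9.73 and 17.5 CPM in controls. The log2 fold change of Tlr7 was 0.78 (SE 0.11, adjusted p = 0.0013 by edgeR). Tlr8 is its neighbour on chromosome X, 167242696 to 167264329 against 167304929 to 167330558 for Tlr7, both on the minus strand (GRCm38), and in human cells it binds breakdown products of RNA. Tlr8 was at 19.8, 7.65 and 8.58 CPM in HTT-deleted libraries, against 7.75, 2.80 and 5.46 CPM in controls. It gave a log2 fold change of 1.13 (SE 0.16, adjusted p = 0.00153 by edgeR). Tlr9 had 20 to 49 counts in HTT-deleted libraries and 9 to 24 in controls. Its levels were 2.25, 0.827 and 1.07 CPM in HTT-deleted libraries, against 1.49, 0.413 and 0.752 CPM in controls. Tlr9 was higher in each pair too (0.57, 0.87 and 0.46 on the log2 scale), but did not pass, with an interval from -0.03 to 1.35 (adjusted p = 0.53 by edgeR). Tlr3 was at 16.0, 14.6 and 13.2 CPM in HTT-deleted libraries, against 15.3, 13.7 and 11.6 CPM in controls, and its interval ran from -0.11 to 0.36. Tlr9 lies on chromosome 9 (106222598 to 106226883, plus strand) and Tlr3 on chromosome 8 (45395665 to 45411080, minus strand, both GRCm38). Tlr3 overlaps Gm45542 on the opposite strand, so that without the strand setting the reads of these cannot be told apart.

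Counted by pairs, 9 of the 10 genes were higher under deletion in all 3 pairs, against 16.1% of the 14588 tested genes. All 10 blocked log2 fold changes were above 0, against 50.2% of all genes, with a median of 0.71 against 0.00078. These 10 were chosen with earlier results of these data known, and several rose and fell together across libraries. The counts are thus not 10 separate results. Which pairs carry the calls varied. Without pair 1, whose 2 libraries had the highest values of most members, 14 genes were called, 11 of them higher (0.0741%), and of the 10 only Tlr13 (log2 fold change 0.76, adjusted p = 0.0251) and Cd180 (0.85, adjusted p = 0.0369) passed edgeR's blocked test. There Tlr1, Tlr7 and Tlr8 had log2 fold changes of 1.27, 0.75 and 1.00, with adjusted p of 0.0689, 0.0869 and 0.0909. The same 5 genes passed without pair 2 (0.923% of all genes were called higher) and without pair 3 (2.56%).

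**Figure D2:**
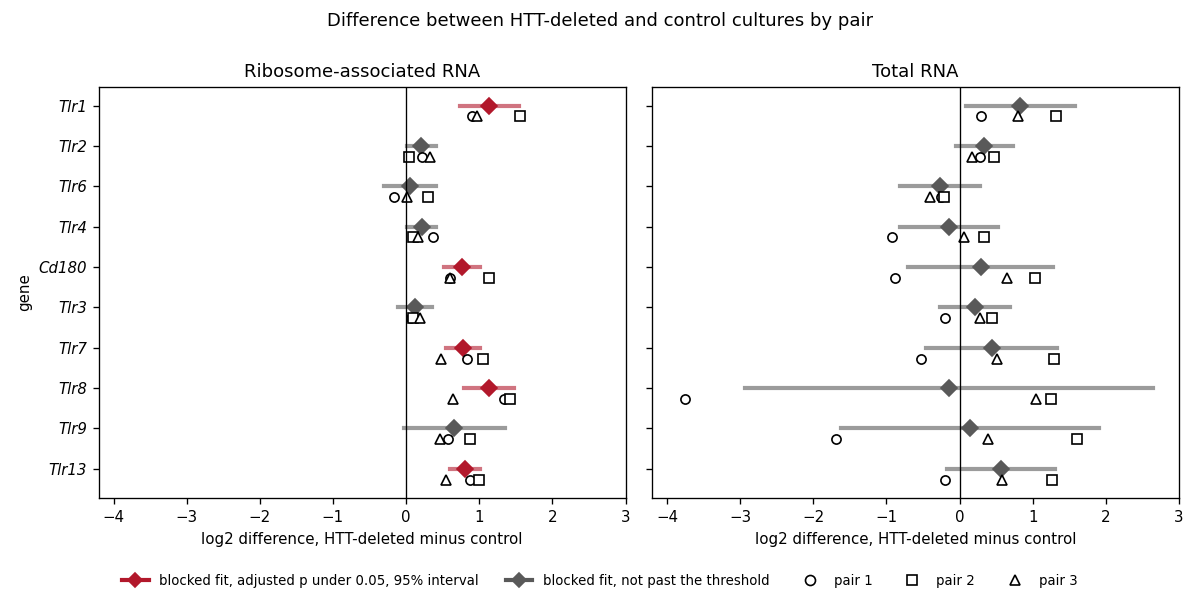
Log2 difference between HTT-deleted and control libraries for each gene, as open symbols for each pair and as a diamond with its 95% interval for the fit with the replicate number as a block; red diamonds are past an adjusted p of 0.05. In ribosome-associated RNA 5 intervals lie above 0 and past the threshold, and in total RNA pair 1 of Tlr8 lies at -3.75.

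The stretch of promoter next to the annotated start is shown for 4 of the 5 genes that rose, since these moved together. The sequences are from RefSeq (GRCm38.p6), 8 of the 10 genes had an entry, and only bases before the gene's start in GENCODE vM21 are printed. The capitals mark GAGGAA or its reverse complement TTCCTC, a core that the myeloid factor PU.1 can bind. Tlr1 is at chr5:64933564-64933808 and Tlr8 at chrX:167264330-167264579, both on the minus strand. Tlr13 is at chrX:106143025-106143203 and Cd180 at chr13:102693308-102693557, both on the plus strand.
Tlr1: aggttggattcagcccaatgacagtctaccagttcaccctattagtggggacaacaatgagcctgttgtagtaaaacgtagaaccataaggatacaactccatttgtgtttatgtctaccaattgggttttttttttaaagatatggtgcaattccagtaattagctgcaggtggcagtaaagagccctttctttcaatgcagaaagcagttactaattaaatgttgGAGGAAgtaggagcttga
Tlr8: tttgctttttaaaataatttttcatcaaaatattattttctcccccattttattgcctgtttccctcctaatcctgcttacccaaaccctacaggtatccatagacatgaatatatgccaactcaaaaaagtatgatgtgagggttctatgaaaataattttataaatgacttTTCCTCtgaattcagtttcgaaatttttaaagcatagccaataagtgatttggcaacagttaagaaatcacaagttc
Tlr13: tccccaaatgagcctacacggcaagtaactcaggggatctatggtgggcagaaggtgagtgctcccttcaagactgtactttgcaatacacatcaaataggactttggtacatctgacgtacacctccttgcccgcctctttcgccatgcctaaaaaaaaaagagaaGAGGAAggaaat
Cd180: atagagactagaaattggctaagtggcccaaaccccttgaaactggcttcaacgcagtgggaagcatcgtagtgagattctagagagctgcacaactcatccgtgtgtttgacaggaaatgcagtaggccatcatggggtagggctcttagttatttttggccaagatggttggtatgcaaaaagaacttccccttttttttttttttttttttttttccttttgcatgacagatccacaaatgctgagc

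The letters GAGGAA begin 18 bases before the start of Tlr1 and 12 bases before that of Tlr13, and TTCCTC begins 77 bases before that of Tlr8. GAGGAA also begins 112 bases before the start of Tlr9, which did not pass the test. The printed window of Cd180 holds neither. Searched on both strands over the 250 bases before each RefSeq start, the motif was in 4 of the 11 windows of the members, and in 23.3% of all 32851 windows of that length. A match of letters is a description and not a site.

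In total RNA none of the 10 genes passed the test. The macrophage marker mean was 7.05, 5.34 and 5.82 log2 CPM in HTT-deleted libraries, against 6.18, 4.23 and 5.29 in controls, and its part was not tested here either. edgeR called 0 of 14759 genes both without the block and with it (0%), with 44 and 350 genes at an unadjusted p under 0.05, of which 0 and 1 (Tlr1) of the 10, and DESeq2 called 3 genes (0.0203%) and none of the 10. Groups overlapped for all 10 (1.61% of all genes were higher without overlap). With the block, Tlr1 had the smallest p of the 10, at a log2 fold change of 0.83 (SE 0.30, adjusted p = 0.902 by edgeR). It was at 4.81, 2.73 and 3.72 CPM in HTT-deleted libraries, against 3.90, 1.04 and 2.10 CPM in controls. Only Tlr1 and Tlr2 were higher in all 3 pairs (9.99% of all genes), and Tlr6 was lower in all 3 (13.2% of all genes). For the other 7, deletion went with lower values in pair 1 and higher ones in pairs 2 and 3.

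Of the surface receptors, Tlr2 was at 31.4, 21.0 and 22.8 CPM in HTT-deleted total libraries, against 25.9, 15.1 and 20.2 CPM in controls (log2 fold change 0.34, SE 0.16). Tlr6 was at 3.10, 3.88 and 3.40 CPM in HTT-deleted libraries, against 3.70, 4.50 and 4.54 CPM in controls (-0.27, SE 0.22). In every pair Tlr2 was thus higher and Tlr6 lower, and neither difference passed the test. Tlr4 was at 17.0, 25.9 and 31.4 CPM in HTT-deleted libraries, against 32.3, 20.6 and 30.0 CPM in controls, lowest of all in the library that stood apart. Of the endosomal receptors, Tlr13 was at 32.2, 22.5 and 30.5 CPM in HTT-deleted libraries, against 37.1, 9.35 and 20.4 CPM in controls (0.57, SE 0.29). Tlr7 was at 22.8, 18.8 and 22.4 CPM in HTT-deleted libraries, against 33.0, 7.67 and 15.7 CPM in controls (0.44, SE 0.35). For both, the control libraries were the wider group, and the HTT-deleted libraries lay inside their range. Tlr3 was at 12.4, 16.8 and 14.1 CPM in HTT-deleted libraries, against 14.3, 12.3 and 11.7 CPM in controls (0.21, SE 0.19).

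The pair that went the other way, pair 1, holds the total library that stood apart. In it Tlr8 had 16 counts, or 0.884 CPM, against 13.0 CPM in the control of the same number, while the other HTT-deleted libraries were at 6.22 and 8.93 CPM, against 2.57 and 4.28 CPM in their controls. Tlr9 was at 0.497, 1.53 and 1.86 CPM in HTT-deleted libraries, against 1.80, 0.445 and 1.40 CPM in controls. Cd180 was at 12.9, 12.4 and 17.2 CPM in HTT-deleted libraries, against 23.7, 6.04 and 11.0 CPM in controls. Thus Cd180 had the highest control and a middling HTT-deleted value in the same pair. Without pair 1, edgeR's blocked test called 94 of 14938 genes, 78 of them higher (0.522%), among them Tlr8 (log2 fold change 1.16, SE 0.20, adjusted p = 0.0251) and Cd180 (0.82, SE 0.14, adjusted p = 0.0276). Tlr13 (0.88, adjusted p = 0.0543), Tlr7 (0.86, adjusted p = 0.103) and Tlr1 (1.06, adjusted p = 0.165) were of similar size but did not pass. Over the 10 genes the median was 0.84 without pair 1 and 0.25 with it.

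Whether deletion acted differently on the fractions was asked with an interaction term over all 12 libraries. edgeR called 0 of 15574 genes (0%), with 85 at an unadjusted p under 0.05, and 0 of the 10. DESeq2 called 0 with 90 genes at that level, and the blocked fit 0 with 150, or 0 of 15787 with 833 without pair 1. Tlr8 had the largest estimate, a log2 difference of 1.49 with a 95% interval from -0.91 to 3.88, and -0.18 with an interval from -0.66 to 0.31 in the blocked fit without pair 1. A rise in ribosome-associated RNA past the threshold and none in total RNA is therefore not shown to differ between the fractions for any of the 10.

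Set against total RNA of the same suspension in control cultures, Tlr2 and Tlr13 were called higher in ribosome-associated RNA by the blocked fit. These were 2 of the 10, and 24.3% of all genes were called higher by that fit. Tlr2 was at 33.4, 22.9 and 22.7 CPM in ribosome-associated libraries, against 25.9, 15.1 and 20.2 CPM in total libraries, and Tlr13 at 42.2, 14.0 and 26.9 CPM, against 37.1, 9.35 and 20.4 CPM. Both were higher in the ribosome-associated library of each suspension, while their groups overlapped. The blocked fit gave log2 fold changes of 0.36 (SE 0.09, adjusted p = 0.00546 by edgeR) for Tlr2 and 0.36 (SE 0.09, adjusted p = 0.00566) for Tlr13. That fit called 7524 of 14990 genes (50.2%), 24.3% higher, and without the block 0 of the 10 passed by edgeR (25% of all genes) or DESeq2 (28.8%), with 0 of the 10 at an unadjusted p under 0.05 by either, against 38.2% of all genes by edgeR and 37.1% by DESeq2. In HTT-deleted cultures the unblocked and blocked fits of edgeR called 0 of the 10, against 0.896% and 0.663% of all genes, with 1 and 3 of the 10 at an unadjusted p under 0.05 (12.2% and 16.1% of all genes). DESeq2 called 0 of the 10 (5.92% of all genes), with 2 of the 10 at that level (14.3% of all genes). Tlr6 was the only member whose groups did not overlap there, at 5.87, 5.33 and 4.97 CPM in ribosome-associated RNA, against 3.10, 3.88 and 3.40 CPM in total RNA (8.89% of all genes were higher in this way), and its log2 fold change was 0.63 (SE 0.24, adjusted p = 0.333 by edgeR). Without replicate 1 the blocked fit called 8333 of 14981 genes (55.6%) and 7 of the 10, with Tlr1, Tlr2, Tlr4, Tlr6, Tlr13 and Cd180 higher by 0.25 to 0.50 on the log2 scale and Tlr9 lower at -0.84.

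In replicate 1 of the HTT-deleted cultures Tlr8 was at 432 counts in the ribosome-associated library and 16 in the total library, a gap of 4.36 on the log2 scale. Of 4737 protein-coding genes with 3014 to 5556 bases of exon, the range of the 10 members, only 2 had a gap that large, Tlr8 included, and the median gap was 0.07. Tlr9 (2.00), Cd180 (1.59), Tlr7 (1.31), Tlr13 (1.26), Tlr4 (1.11) and Tlr1 (1.06) had gaps above the 95th percentile of those genes, 1.05. In the 5 other suspensions the gap of Tlr8 ran from -0.74 to 0.34.

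**Figure D3:**
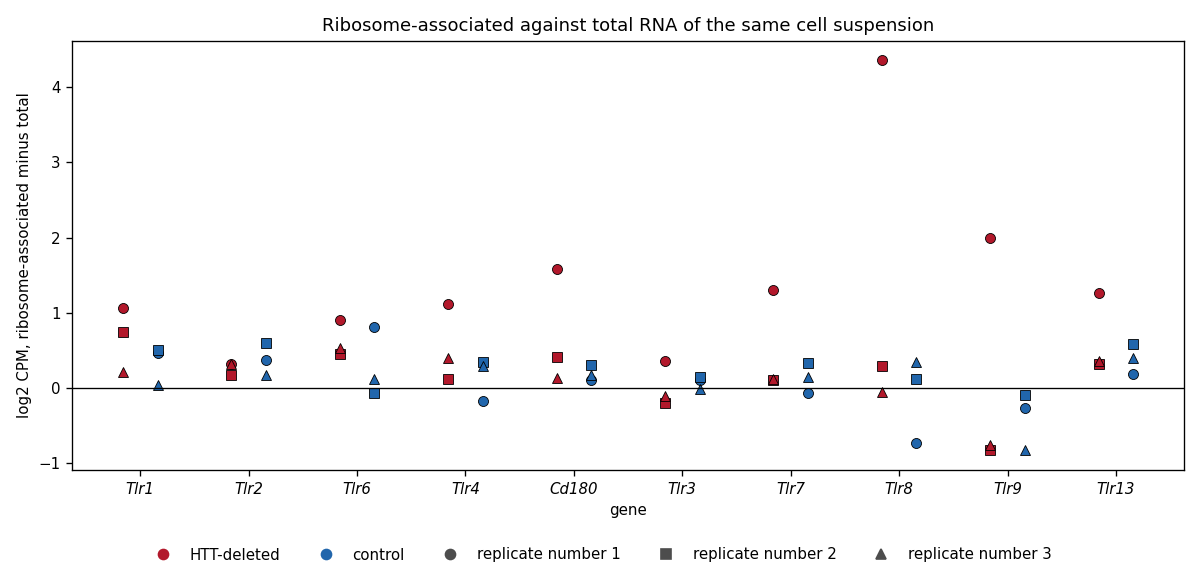
Log2 CPM in ribosome-associated RNA minus log2 CPM in total RNA of the same suspension, for each gene, with HTT-deleted suspensions left of control. HTT-deleted replicate 1 (circles) is at 4.36 for Tlr8 and 2.00 for Tlr9, and the other suspensions lie within about 1 log2 unit of 0.

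The co-receptors and the proteins that move the receptors to endosomes were measured as a list of 17 genes, all tested. In ribosome-associated RNA with the block, 2 rose (1.46% of all genes did) and none fell, with a list median of 0.20 against 0.00078 for all genes. Ctss, a lysosomal cysteine protease that trims endosomal receptors, was at 393, 153 and 159 CPM in HTT-deleted libraries, against 225, 68.0 and 113 CPM in controls. Its log2 fold change of 0.82 (SE 0.11, adjusted p = 0.00153 by edgeR) was close to that of Tlr13. Unc93b1, the chaperone of the endosomal receptors, was at 99.2, 50.2 and 70.5 CPM in HTT-deleted libraries, against 84.1, 34.8 and 57.7 CPM in controls (log2 fold change 0.35, SE 0.08, adjusted p = 0.0368 by edgeR). The co-receptors did not pass: Ly86, the partner of CD180, had a value of 0.56 on 17 to 116 counts, Ly96, the partner of TLR4, 0.25, and Cd14, which hands lipopolysaccharide on, 0.20. Lbp, the lipopolysaccharide-binding protein, was at -0.36.

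Of 26 adaptors, kinases and regulatory factors, 2 rose in the same fit (1.46% of all genes did) and none fell, with a median of 0.07. They were Pik3ap1, which links receptors to phosphoinositide 3-kinase, and Btk, a cytoplasmic tyrosine kinase of myeloid and B cells. Pik3ap1 was at 44.4, 18.9 and 23.6 CPM in HTT-deleted libraries, against 25.4, 7.84 and 17.8 CPM in controls (log2 fold change 0.80, SE 0.13, adjusted p = 0.00718 by edgeR). Btk was at 18.3, 6.78 and 8.40 CPM in HTT-deleted libraries, against 12.2, 3.90 and 6.50 CPM in controls (0.57, SE 0.14, adjusted p = 0.0436 by edgeR). Both were higher in each pair. Irf5, an interferon regulatory factor, had a value of 0.35 with adjusted p = 0.181 by edgeR. Macrophage markers were higher in the same pairs as Ctss, Unc93b1, Pik3ap1 and Btk, and their part in these rises was not tested.

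Of 20 genes that activated receptors are known to induce, 15 were tested and none rose or fell by edgeR's blocked test of ribosome-associated RNA. At an unadjusted p under 0.05 in it were 5 of the 15, against 10.1% of all genes. Of these 15, 10 had log2 fold changes below 0 and the median was -0.07. Cxcl10, an interferon-induced chemokine, was at 2.75, 1.98 and 1.44 CPM in HTT-deleted libraries, against 4.47, 3.21 and 2.52 CPM in controls (-0.73, SE 0.22, adjusted p = 0.136 by edgeR). Cxcl1, a neutrophil chemokine, was at 5.83, 6.53 and 15.1 CPM in HTT-deleted libraries, against 14.0, 11.2 and 15.8 CPM in controls (-0.64, SE 0.19, adjusted p = 0.167 by edgeR). Ccl3, a chemokine of activated macrophages, had 0.35. In total RNA no gene of these 3 lists passed edgeR's test with or without the block. With the block an unadjusted p under 0.05 was found for 3 of 26 adaptor genes, 4 of 17 trafficking genes and 2 of 15 induced genes, and without it for none. Of all genes 2.37% were at that level with the block and 0.298% without it.

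**Figure D4:**
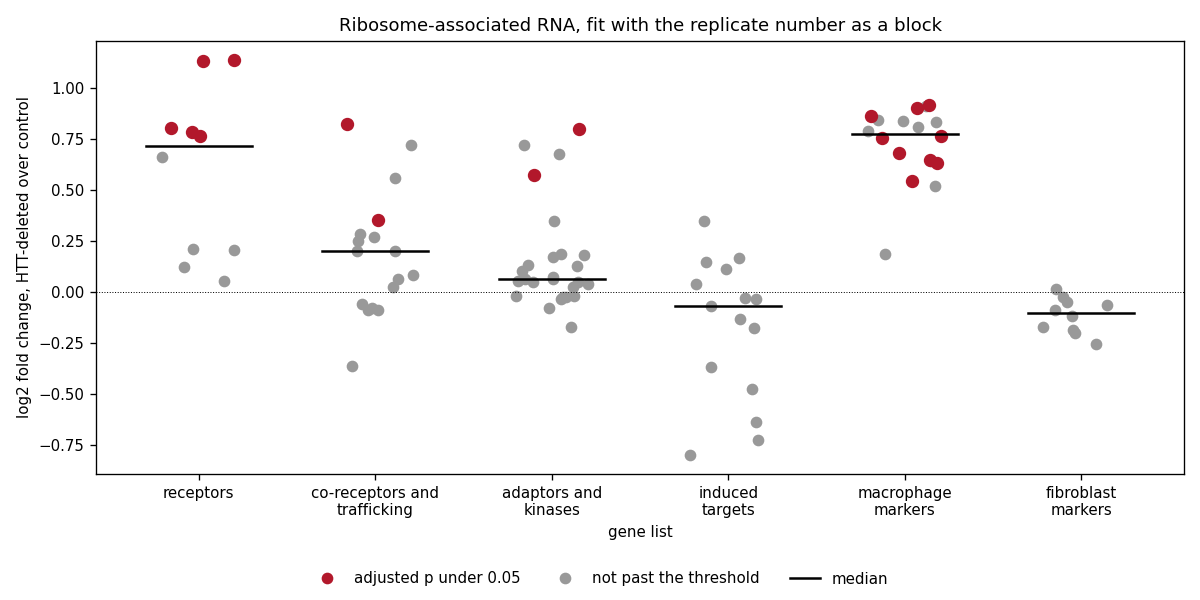
Log2 fold change of each tested gene of 6 lists in ribosome-associated RNA, HTT-deleted over control, from the fit with the replicate number as a block; red points are past an adjusted p of 0.05 and bars are medians. The medians are 0.71 for the receptors, 0.20 for co-receptors and trafficking, 0.07 for adaptors, -0.07 for induced targets, 0.77 for macrophage markers and -0.10 for fibroblast markers.

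The 18 macrophage markers were detected throughout. None of them was at 0 in any library, and they summed to 2657 to 8078 CPM in HTT-deleted and 1126 to 4638 CPM in control ribosome-associated libraries. In total RNA they summed to 1727 to 7042 CPM in HTT-deleted and 752 to 3071 CPM in control libraries. In the blocked fit 9 of the 18 rose in ribosome-associated RNA (1.46% of all genes), all 18 values were above 0, and their median was 0.77, against 0.71 for the receptors. In total RNA markers and receptors stood further apart when all pairs were fitted. There the blocked medians were 0.92 for the markers, with 17 of 18 above 0, and 0.25 for the receptors, with 7 of 10 above 0. At an unadjusted p under 0.05 in that fit were 16 of the 18 markers and 1 of the 10 receptors (2.37% of all genes). Without pair 1, which holds the total library that stood apart, the receptor median was 0.84, with 9 of 10 above 0. No marker median was taken without that pair, so the distance is not shown to hold there. Most markers of other cells were at or near 0. The T cell genes Cd3e, Cd3d and Cd3g and the plasmacytoid dendritic cell gene Siglech had 0 counts in all 12 libraries. Per library, 3 neutrophil markers summed to at most 0.166 CPM, 3 mast cell markers to 0.360, 3 dendritic cell markers to 3.97 and 3 endothelial markers to 6.15. The 3 plasmacytoid dendritic cell markers summed to 227 to 509 CPM, nearly all of it Bst2, an interferon-induced gene of many cell types. In the blocked edgeR test of ribosome-associated RNA none of 10 fibroblast markers rose or fell. At an unadjusted p under 0.05 was 1 of them (10.1% of all genes), and 9 of the 10 values were below 0.

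Over the 12 libraries, which share cultures and fractions, the level of Tlr1 had a Pearson correlation of 0.932 with the mean of the macrophage markers, Tlr13 0.921, Tlr2 0.911, Tlr7 0.904 and Cd180 0.839. Tlr9 had 0.472, Tlr3 0.301, Tlr8 0.281, Tlr4 0.174 and Tlr6 0.0915. Within the ribosome-associated libraries alone Tlr9 had 0.994, Tlr8 0.957, Tlr6 0.846, Tlr3 0.578 and Tlr4 0.465. Within the total libraries alone Tlr9 had 0.105, Tlr8 -0.185, Tlr6 -0.872, Tlr3 0.054 and Tlr4 -0.138. Leaving out the total library that stood apart, the values over 11 libraries were 0.993 for Tlr13, 0.991 for Cd180, 0.985 for Tlr7, 0.965 for Tlr1 and 0.939 for Tlr8. They were 0.914 for Tlr2, 0.787 for Tlr9, 0.714 for Tlr4, 0.486 for Tlr3 and 0.435 for Tlr6. These libraries include the HTT-deleted and control cultures compared above, so the values are no separate evidence on those differences.

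**Figure D5:**
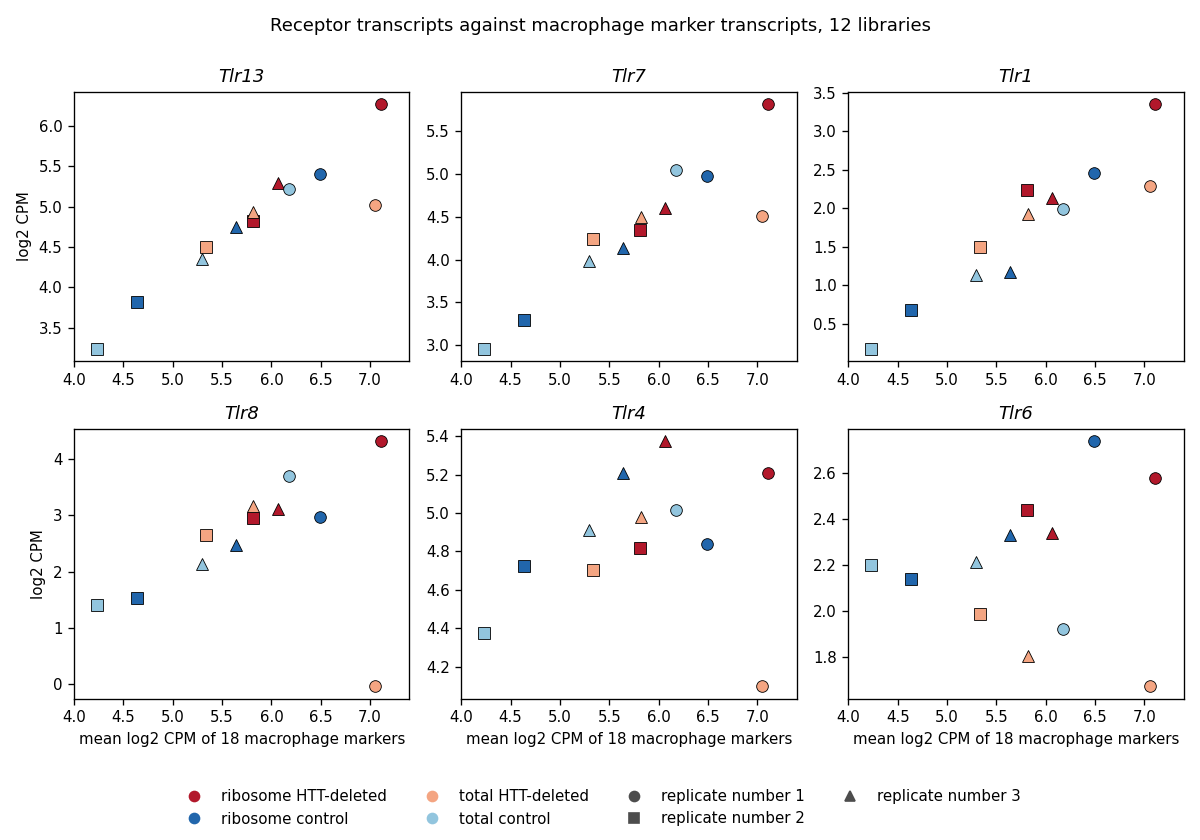
Log2 CPM of 6 receptor genes against the mean log2 CPM of 18 macrophage markers in the 12 libraries, coloured by group and shaped by replicate number. Tlr13, Tlr7 and Tlr1 lie along a line apart from total HTT-deleted replicate 1, in which Tlr8, Tlr4 and Tlr6 are lowest. Tlr6 follows no line common to both fractions, with a Pearson correlation of -0.872 among total libraries and 0.846 among ribosome-associated ones.

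When each library's macrophage mean was subtracted, a measure added after the values had been seen, every gene's ribosome-associated difference fell by the same amount. Tlr13 was then at 0.07, Tlr7 at 0.05 and Cd180 at 0.04 on the log2 scale, HTT-deleted minus control, and their groups overlapped. Tlr2 was at -0.54, Tlr3 at -0.62, Tlr4 at -0.53, Tlr6 at -0.69 and Tlr9 at -0.10, also with groups that overlapped. Tlr8 was at -2.79, -2.86 and -2.95 in HTT-deleted libraries, against -3.52, -3.11 and -3.17 in controls, a difference of 0.40. Tlr1 was at -3.75, -3.57 and -3.93 in HTT-deleted libraries, against -4.04, -3.96 and -4.48 in controls, a difference of 0.41. For Tlr1 and Tlr8 the groups did not overlap, which held for 0.0642% of 15574 genes in that direction. The mean that is subtracted was itself higher in each HTT-deleted library than in its control, so the measure moves all genes down alike. Before subtraction 2.63% of 14588 genes were higher without overlap, and that shift lowers the share. The part of macrophages was not tested by this measure. In total RNA the groups of all 10 overlapped (0.0514% of genes were higher without overlap). In both fractions Tlr2, Tlr3, Tlr4 and Tlr6 were below 0 on this measure in each pair. The shift alone places there any gene that changed less than the markers. The share of all genes below 0 in each pair was not counted, so this is no trait particular to these receptors.

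The 6 genes whose levels over the 12 libraries were most like the mean of the 10, among 12470 genes of at least 1 CPM, were Bin2 (r = 0.969), Ms4a14 (0.964), Nckap1l (0.947), Pik3cg (0.938), Trim14 (0.931) and Rnf144b (0.931). Taken singly, Tlr13 was closest to Mpeg1 (r = 0.991), which encodes the pore-forming perforin-2 of macrophages, Tlr7 to Pik3cg (0.989) and Cd180 to Ms4a14 (0.986). Tlr1 was closest to Sh2d3c (0.974), Tlr2 to Cd53 (0.974), Tlr4 to the interferon-induced Ifit2 (0.964), Tlr9 to Lilrb4a (0.941), Tlr8 to Lactb2 (0.926), Tlr6 to Lysmd3 (0.894) and Tlr3 to Stk4 (0.830). Among the members themselves Tlr7 and Tlr13 had a correlation of 0.982, Tlr7 and Cd180 0.981, and Tlr8 and Tlr4 0.819, while Tlr3 had at most 0.563 with any other.

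Without the total library that stood apart, a choice made after the values had been seen, the 4 genes most like the mean over 11 libraries were Cnr2 (r = 0.994), Sirpa (0.991), Ptpn6 (0.991) and Mpeg1 (0.991). Tlr13 was again closest to Mpeg1 (0.994) and Tlr4 to Ifit2 (0.947). The nearest gene was Was for Tlr7 (0.993), Sirpa for Cd180 (0.995), Lat2 for Tlr1 (0.984), Tnfaip8l2 for Tlr2 (0.976), Myo1g for Tlr9 (0.962), P2rx7 for Tlr8 (0.981), Phf5a for Tlr6 (0.971) and Frmd4b for Tlr3 (0.896). Which genes stood nearest to the other 8 receptors thus changed when 1 library was left out. Among the members, Tlr7 and Tlr13 had 0.982, Tlr7 and Cd180 0.992, Tlr7 and Tlr8 0.969 where all 12 libraries gave 0.649, and Tlr8 and Tlr4 0.662. These are descriptions over libraries that share cultures.

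The authors' deposited table gave a false discovery rate under 0.05 in ribosome-associated RNA to the same 5 genes, Tlr1, Tlr7, Tlr8, Tlr13 and Cd180, as did 4.21% of the 16235 genes it lists. In the authors' deposited table their log2 fold changes there were 1.14, 0.79, 1.14, 0.81 and 0.77, read as HTT-deleted over control because Htt stands at -1.93. For total RNA the authors' deposited table gave none of the 10 a false discovery rate under 0.05, against 4.97% of 16974 genes. Tlr1 came closest there, at 0.71 with a false discovery rate of 0.144 in the authors' deposited table, and Tlr8 stood at -0.79. That table is labelled as a result of RUVSeq and edgeR and gives likelihood ratios, unlike the quasi-likelihood fits used here. It rests on the same libraries, so the shared calls are no separate evidence.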

How the data were processed

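RNA was sequenced from 12 libraries in 4 groups of 3, and the members and gene lists used here were chosen with earlier results of these data known. FastQC, STAR 2.7.2b and HTSeq 0.11.1 on GRCm38 (mm10) are named in the submitters' processing notes, and the authors deposited raw read counts per gene. Neither the annotation release nor the strand setting of the counting is named there. Entries that name no gene (9.22 to 15.1% per library) were left out. A further table deposited by the authors holds, per gene and fraction, a p-value with its FDR, a score from a likelihood ratio test, and the log2 fold change beside the mean level in log2 units.

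Counts were scaled by TMM, filtered with filterByExpr (minimum count 10, total 15) and tested with edgeR 4.0.16 (R 4.3.3) by its quasi-likelihood test, adjusted by Benjamini-Hochberg over all genes tested and called under 0.05. CPM use TMM library sizes, with a prior count of 2 before taking logs. CPM per kb used exon lengths of GENCODE vM21. Same-numbered libraries of the 2 conditions deviated together from their group means (across genes, correlations of 0.525, 0.703 and 0.626 for ribosome-associated RNA, 0.227, 0.576 and 0.444 for total RNA), as did the fractions of 1 suspension (0.347 to 0.737), so the numbers were taken as pairs and fits with the number as a block are given. No 2 libraries of a group agreed within sampling noise (chi-square per degree of freedom 32.1 to 162). All 10 members were named, with Htt and, from each list, the 3 genes of smallest p in the blocked ribosome-associated fit and 4 co-receptors. Lists were described by counts and medians. The fit was also run on simulated counts with changes set in genes of higher count. These held no shift tied to exon length in single libraries, so they do not cover that shift or changes in genes as low as Tlr9. Alternatives were RLE scaling, no filter, DESeq2 1.42.0, the block, each library or pair left out.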

Additional observations from a re-analysis of the deposited data

How the results depend on the processing

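With RLE scaling the 10 receptors kept their directions and calls. In total RNA edgeR called 0 genes, 1 without the filter on low counts, and DESeq2 called 3. The replicate block called 94 genes and 2 receptors on pairs 2 and 3, 6 genes on pairs 1 and 3 and 3 genes on pairs 1 and 2, fits without pair 2 or pair 3 having been chosen after seeing the data. In ribosome-associated RNA DESeq2 called 1 gene, and the replicate block called 247 genes and 5 receptors, 14 and 2 on pairs 2 and 3, 182 and 5 on pairs 1 and 3, and 581 and 5 on pairs 1 and 2. Between fractions of HTT-deleted cultures (131 genes) there were 208 without the filter, 866 with DESeq2, 0 to 3008 with a library left out (3008 without total HTT-deleted replicate 1), and 8333 genes and 7 receptors with the replicate block on pairs 2 and 3. Between fractions of controls (3745 genes) there were 1507 to 3251 with a library left out, 7524 genes and 2 receptors with the block, and 7445 and 3 on pairs 2 and 3. The cause of these shifts was not tested.

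None of the 10 receptors passed without the block in any comparison, and the values below include those that turned direction, Tlr13 between control fractions among them, which passed with the block. In total RNA, leaving out a library gave -0.88 to 0.65 for Tlr8, -0.32 to 0.060 for Tlr4, -0.16 to 0.90 for Tlr7, -0.29 to 0.49 for Tlr9 and -0.27 to 0.76 for Cd180. The replicate block on pairs 2 and 3 gave 1.16 for Tlr8 and 0.19 for Tlr4, on pairs 1 and 3 -0.60 for Tlr9 and -0.082 for Cd180, and on pairs 1 and 2 -0.040 for Tlr9. In ribosome-associated RNA leaving out a library gave -0.0097 to 0.43 for Tlr2 and -0.085 to 0.23 for Tlr6, and pairs 1 and 3 gave -0.067 for Tlr6. There the 5 genes that rose with the block ranged over 0.58 to 1.79 for Tlr1, 0.20 to 1.31 for Tlr7, 0.61 to 1.54 for Tlr8, 0.29 to 1.24 for Tlr13 and 0.23 to 1.32 for Cd180, lowest without HTT-deleted replicate 1, and none passed unblocked. The interaction ranged over -0.15 to 1.13 for Tlr1, -0.31 to 0.13 for Tlr2, -0.17 to 0.055 for Tlr3, -0.077 to 1.13 for Tlr7, -0.13 to 0.89 for Tlr13 and -0.015 to 1.26 for Cd180. With the replicate block on pairs 2 and 3 it was -0.061 for Tlr4, -0.12 for Tlr7, -0.18 for Tlr8, -0.19 for Tlr9 and -0.13 for Tlr13. Between fractions of HTT-deleted cultures the ranges were -0.090 to 0.13 for Tlr3 and -0.45 to 0.44 for Tlr9, with -0.16 and -0.84 on pairs 2 and 3. Between fractions of controls they were -0.36 to 0.93 for Tlr1, -0.010 to 0.18 for Tlr3, -0.027 to 0.28 for Tlr4, -0.46 to 0.75 for Tlr7, -0.70 to 0.64 for Tlr8, -0.12 to 0.90 for Tlr13 and -0.45 to 0.83 for Cd180, with 0.27 for Tlr8 on pairs 2 and 3. Tlr9 had 9 to 55 counts per library.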
